A study of Arabidopsis thaliana with 12 samples.

Results

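The genes described here are the 68 genes of the plastid genome that the Affymetrix ATH1 array measured in Arabidopsis thaliana seedlings treated with abscisic acid (ABA), with the synthetic compound DFPM, or with both. A probe set was included if the platform annotation gave it 1 gene, if that gene lay on the plastid genome, and if its deposited log2 value reached 4 on at least 3 of the 12 arrays. Of 14401 probe sets that met the same minimum, 68 were of a single plastid-encoded gene: 20 genes for photosystem subunits (psa and psb), 6 for the cytochrome b6f complex (pet), 6 for ATP synthase (atp), 9 for the NDH complex (ndh), 15 for ribosomal proteins (rpl and rps), 4 for RNA polymerase (rpo) and 8 others. The seedlings were of ecotype Col-0, 12 days old and grown on plates, and each group had 3 arrays of whole-seedling RNA. The ABA+DFPM group received 30 µM DFPM and 10 µM ABA, the DFPM group 30 µM DFPM, the ABA group 10 µM ABA, and the control group DMSO at 1 part in 5000. The labels give 6 h for the treated groups, no time for control, and no DMSO for the treated groups. They place DFPM 30 min ahead of ABA, a remark that the DFPM group carries too although its label lists no ABA. ABA is a stress hormone that closes stomata and represses growth, and DFPM is a small molecule known for opposing ABA responses, so the 4 groups ask how each agent acts alone and how DFPM alters the response to ABA.

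Chloroplasts keep a small circular genome for core parts of the photosynthetic complexes and for the machinery that expresses them, while most chloroplast proteins are made from nuclear genes and imported. Plastid genes are read by a bacterial-type RNA polymerase, whose core is plastid-encoded and whose sigma factors are nuclear, and by a nucleus-encoded phage-type polymerase. Many are transcribed together as operons, and the long transcripts are then cut, edited and stabilised by nucleus-encoded proteins, so the level of a plastid transcript need not follow its transcription alone. Plastid transcripts mostly lack stable poly(A) tails, whereas the labelling kit named in the labels is normally used with priming at poly(A). How the array values relate to transcript abundance was not tested. In RNA from whole seedlings, fewer green cells and less plastid RNA per cell cannot be told apart.

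Of the 69 probe sets for a single plastid gene, 68 passed the minimum. The exception was ndhF, which reached log2 4 on 0 arrays. Among those that passed, 66 lay at or above 4 on all 12 arrays. The genes nearest the minimum were petD, at or above it on 9 arrays, and rps14, on 7 arrays, of which 4 were outside the ABA+DFPM group.

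Plastid transcripts gave some of the brightest signals on the arrays. Their mean log2 levels ran from 4.53 to 14.35 with a median of 11.31, against a median of 7.30 over all 14401 probe sets, and 41 of the 68, or 60.3%, lay above the 90th percentile of all probe sets. By class, mean levels ran from 6.99 to 14.03 for psa and psb, 5.15 to 13.82 for pet, 7.49 to 14.35 for atp, 6.40 to 13.78 for ndh, 4.53 to 12.44 for rpl and rps, 4.60 to 11.30 for rpo and 7.99 to 12.48 for the others. Probe sets differ in how well they bind, so these ranges do not rank the genes. As a percentage of the summed linear signal of each array, the 68 genes took 2.97, 3.12 and 2.19 on the ABA+DFPM arrays numbered 1, 2 and 3, 2.78, 3.28 and 2.40 on the DFPM arrays, 2.81, 3.35 and 3.05 on the ABA arrays, and 3.41, 3.65 and 3.59 on the control arrays. All 9 treated arrays lay below the 3 control arrays on this measure. Values of 3 arrays are given below in the order of their numbers in the sample titles.

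The arrays numbered 3 stood apart from those numbered 1 and 2 in every group, and this touches all results below. Deviations from the group means over all probe sets correlated at r from 0.426 to 0.802 between arrays of the same number, and at -0.766 to -0.432 between number 3 and the other 2 numbers. Results are therefore given from a fit without the numbers, from a fit with the number as a replicate block, and, where they rest on number 3, from arrays 1 and 2 alone. Numbers 1 and 2 also correlated with each other, at r from 0.38 to 0.701, and a further fit averaged them within each group before applying the block. Deviations sum to 0 within a group, so a deviation shared by the arrays numbered 3 by itself makes that r positive. It is not separate evidence that numbers 1 and 2 are linked. The averaged fit holds fewer values per group and gives number 3 as much weight as numbers 1 and 2 together. Its median change against control was -0.58 for DFPM and -0.59 for ABA+DFPM, against -0.52 and -0.45 with each array counted once. Calls with the block are to be read beside it, but a call kept in it may rest on number 3. A gene is said to have risen or fallen where the fit without the block gave a Benjamini-Hochberg adjusted p under 0.05 over all 14401 probe sets (limma, two-sided, n = 3 arrays per group). The labels do not say whether the 3 arrays of a group hold RNA of separately treated seedlings. The p-values therefore rest on a spread that may be technical, and 3 arrays a group limit their precision. The median SD of the plastid genes within groups was 0.488 on the log2 scale, against 0.398 over all probe sets. With the numbers removed it was 0.286, against 0.270.

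Plastid transcripts lay lower in treated seedlings than in control seedlings by small amounts. In DFPM seedlings 63 of 68 genes had a change below 0, against 54.1% of all probe sets. The median log2 change was -0.52, against -0.08 over all probe sets. For ABA against control 58 genes lay below 0 (54.8% of all probe sets), with a median of -0.25 against -0.09. For ABA+DFPM against control 60 genes did (52.3% of all probe sets), with a median of -0.45 against -0.06. All 3 comparisons share the control arrays, and the 68 genes share arrays and operons, so they are not separate observations. Within the numbers 1, 2 and 3 the median change of the plastid genes was -0.36, -0.31 and -0.71 for DFPM, -0.29, -0.13 and -0.29 for ABA, and -0.19, -0.27 and -0.81 for ABA+DFPM, all against the control array of the same number. The medians for DFPM and for ABA+DFPM were lowest in number 3. On arrays 1 and 2 alone the median was -0.34 for DFPM, -0.22 for ABA and -0.26 for ABA+DFPM.

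**Figure D1:**
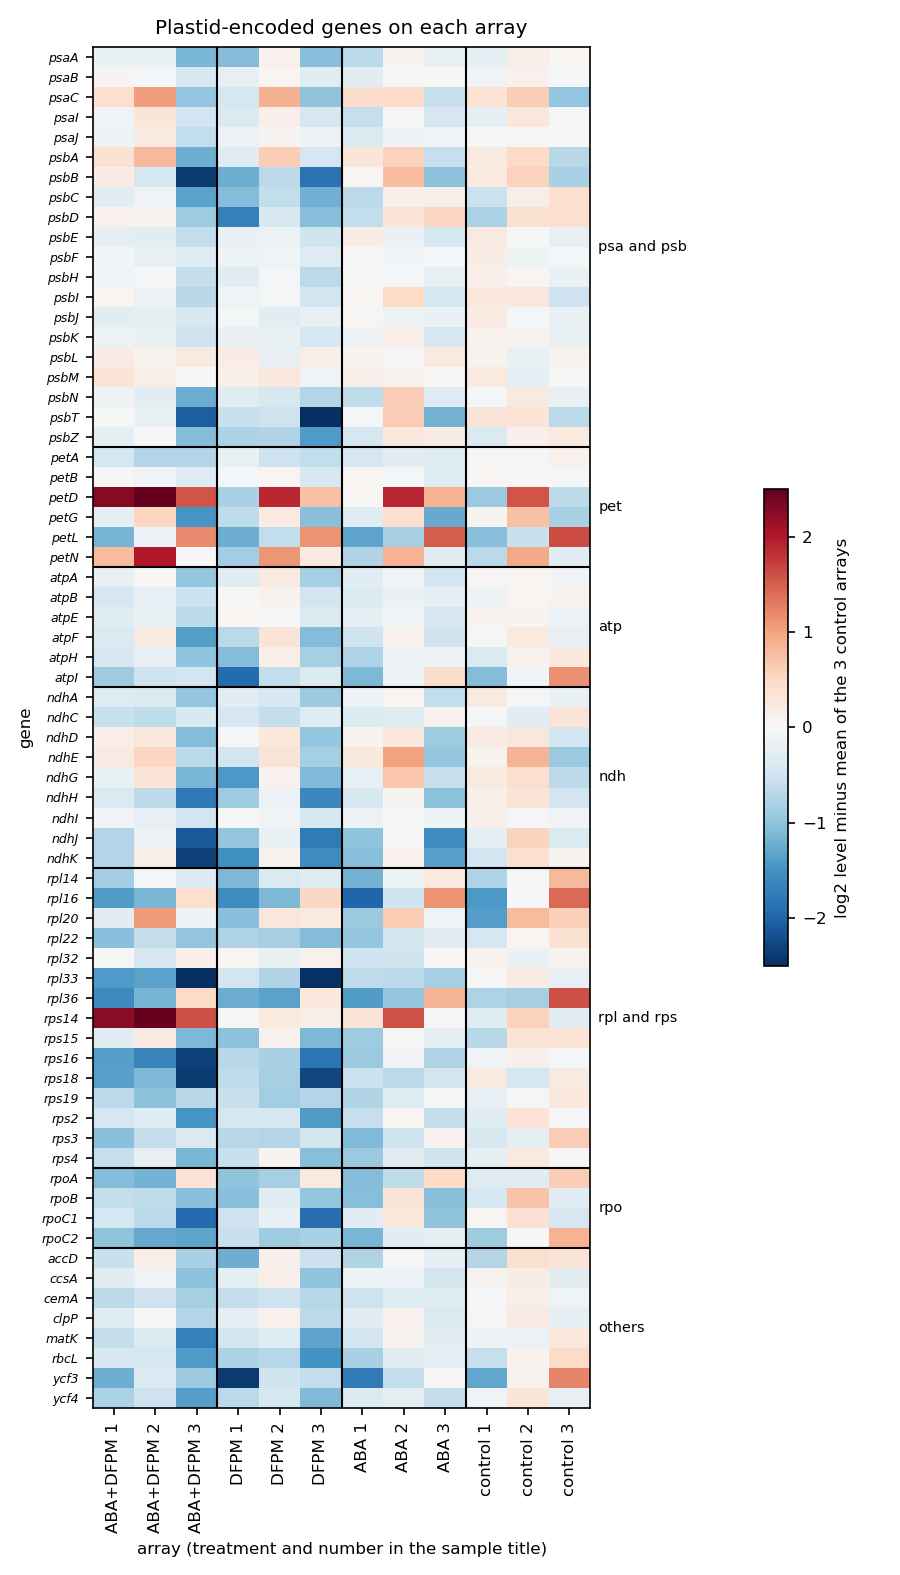
Log2 level of each of the 68 plastid-encoded genes on each of the 12 arrays, as the difference from the mean of the 3 control arrays. Rows are genes by class, columns are arrays by group, and blue is lower and red higher than control. The ABA+DFPM and DFPM columns numbered 3 hold many of the deepest blue cells, and petD and rps14 are red on all 3 ABA+DFPM arrays.

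Few single genes passed the test. In DFPM seedlings 4 of 68 plastid genes fell and 0 rose, where 24.0% of all probe sets were called, 11.4% lower and 12.7% higher. With the replicate block 28 fell and 0 rose, against 47.4% of all probe sets called, 26.5% lower and 20.9% higher. With numbers 1 and 2 averaged and the block, 4 of those 28 were still called (ndhH, psbT, rps16 and ycf4), against 24.1% of all probe sets called and 13.1% lower. On arrays 1 and 2 alone 8 fell, against 49.6% of all probe sets called, 27.4% lower and 22.2% higher, and 2 of the 4 were among them. For ABA against control 0 plastid genes were called by limma, where 28.9% of all probe sets were, 14.3% lower and 14.6% higher. At an unadjusted p under 0.05 there were 2, and with the block 2 fell (ndhJ and cemA), against 48.5% of all probe sets, 26.4% lower and 22.1% higher. Neither was called with numbers 1 and 2 averaged, against 23.4% of all probe sets. Without number 3, 3 genes fell (cemA, rpl33 and rpoA), against 58.1%, 32.3% lower and 25.8% higher. For ABA+DFPM against control 9 fell and 2 rose, against 47.4% of all probe sets called, 25.4% lower and 22.0% higher. With the block 29 fell and 3 rose, against 64.2%, 34.9% lower and 29.3% higher. With numbers 1 and 2 averaged and the block 15 fell and 2 rose, 17 of those 32, against 46.9% called and 26.0% lower. When number 3 was left out 13 fell and 1 rose, against 68.6%, 37.1% lower and 31.4% higher, and 8 of the 11 were among them.

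Large changes were few. Changes of more than 1 log2 unit in size against control were seen for 7 genes (10.3%) with ABA+DFPM, 8 genes (11.8%) with DFPM and 0 genes with ABA, where 43.6%, 29.1% and 30.4% of all probe sets passed that size. The 3 DFPM arrays lay wholly below the 3 control arrays for 17 plastid genes and wholly above them for 0, where 23.2% of all probe sets lay wholly below and 21.1% wholly above. For ABA+DFPM those counts were 18 below and 2 above (30.2% and 26.0% of all probe sets), and for ABA 8 below and 0 above (25.7% and 21.1%). On this measure the plastid share lay just above that of all probe sets for genes below control with DFPM (17 of 68), and under it otherwise. In these 3 comparisons and fits the share of plastid genes called in a direction lay under that of all probe sets, except with the block for genes called lower in DFPM seedlings (28 of 68) and in ABA+DFPM seedlings (29 of 68), where it lay above. With numbers 1 and 2 averaged it lay under that of all probe sets in both, at 4 and 15 of 68 called lower.

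**Figure D2:**
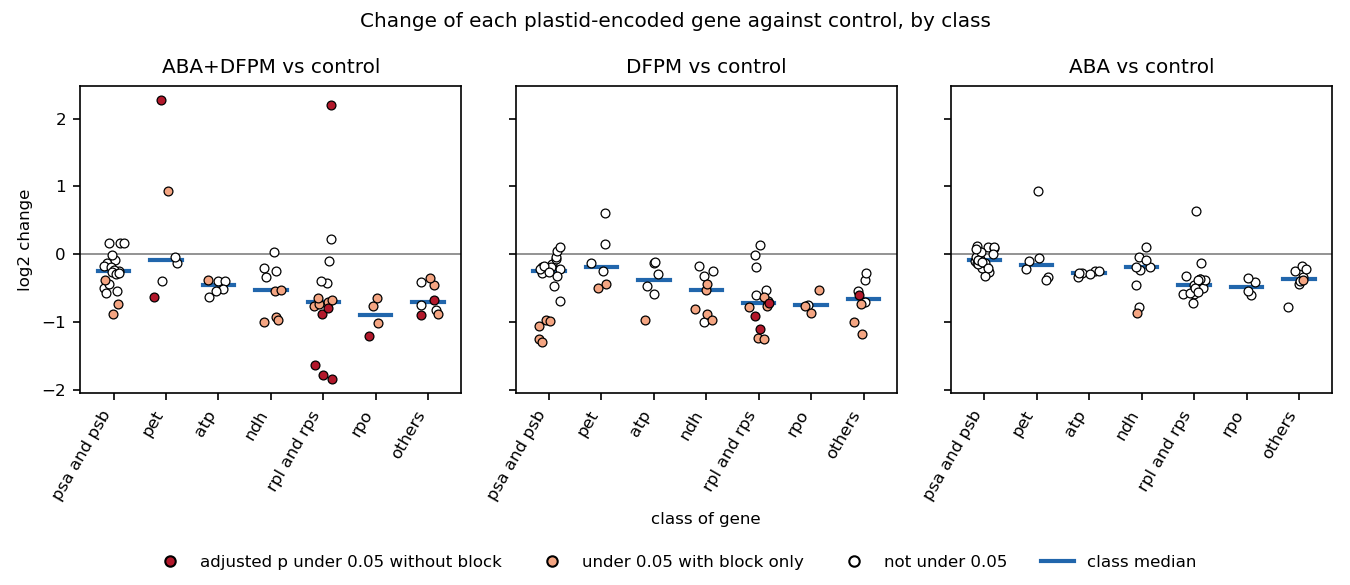
Log2 change of each plastid-encoded gene against control, by class, for ABA+DFPM, DFPM and ABA (n = 3 arrays per group). Each point is a gene, its fill shows in which fit its adjusted p was under 0.05, and blue bars are class medians. The rpl and rps, rpo and other genes have lower medians than psa and psb, and petD and rps14 stand alone at the top with ABA+DFPM.

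The classes differed in their medians. In DFPM seedlings the median log2 change was -0.75 for rpo, -0.72 for rpl and rps, -0.66 for the others, -0.53 for ndh, -0.38 for atp, -0.24 for psa and psb and -0.19 for pet. With ABA+DFPM the medians were -0.89 for rpo, -0.71 for the others, -0.70 for rpl and rps, -0.53 for ndh, -0.45 for atp, -0.25 for psa and psb and -0.08 for pet, and with ABA they lay between -0.47 for rpo and -0.08 for psa and psb. The genes of the expression machinery thus had lower medians than those of the photosystems in all 3 comparisons. These are descriptions of 4 to 20 genes a class that share arrays and operons, and the differences between classes were not tested.

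Ribosomal protein genes were 15 of the 68 plastid genes. Of the genes called without the block, they made up 3 of 4 with DFPM and 6 of 11 with ABA+DFPM. Those 6 were 5 that fell and rps14, which rose. With the block they made up 8 of 28 and 11 of 32. With numbers 1 and 2 averaged and the block they made up 1 of 4 and 8 of 17. Whether they were called more often than genes of other classes was not tested. The plastid makes part of its own bacterial-type ribosome, with rps genes for the small subunit and rpl genes for the large one. Of 15 genes, 3 fell in DFPM seedlings (rpl22, rps16 and rps19), 8 with the block and 1 of these, rps16, with numbers 1 and 2 averaged, and 5 fell and 1 rose in ABA+DFPM seedlings. Of all probe sets, 11.4% were called lower with DFPM, 26.5% with the block and 13.1% with numbers 1 and 2 averaged. With ABA+DFPM 25.4% were called lower and 22.0% higher. For rpl22, log2 levels were 10.34, 10.79 and 10.39 with ABA+DFPM, 10.60, 10.54 and 10.29 with DFPM and 10.40, 10.91 and 11.09 with ABA, against 10.94, 11.43 and 11.77 in control. All DFPM arrays and all ABA+DFPM arrays lay below all control arrays. The change was -0.90 ± 0.26 with DFPM (SE, adjusted p = 0.0303), so that the DFPM mean was 53.4% of control, and -0.88 ± 0.26 with ABA+DFPM (adjusted p = 0.0188). For rps19, which lies beside rpl22 in the same operon, levels were 11.71, 11.35 and 11.68 with ABA+DFPM, 11.82, 11.51 and 11.64 with DFPM and 11.63, 12.08 and 12.32 with ABA, against 12.18, 12.32 and 12.63 in control. Again both DFPM groups lay wholly below control, with changes of -0.72 ± 0.22 (adjusted p = 0.0383) with DFPM and -0.79 ± 0.22 (adjusted p = 0.0136) with ABA+DFPM.

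The gene rps16, which carries an intron, gave 5.42, 5.16 and 4.48 with ABA+DFPM, 6.11, 5.99 and 4.99 with DFPM and 5.88, 6.74 and 6.05 with ABA, against 6.73, 6.93 and 6.76 in control. Within each number the ABA+DFPM array was the lowest, and neither the ABA+DFPM nor the DFPM arrays overlapped control. The change was -1.11 ± 0.36 with DFPM (adjusted p = 0.0468) and -1.78 ± 0.36 with ABA+DFPM (adjusted p = 0.00267), or 29% of control. Against ABA alone the change with ABA+DFPM was -1.20 ± 0.36, with an adjusted p of 0.0524, or 0.0112 with the block. The DFPM calls of these 3 genes depended on single arrays. That of rpl22 was lost without control array 2 or 3 or any DFPM array (adjusted p up to 0.0931), and that of rps19 without any 1 control or DFPM array or ABA array 2 (up to 0.106). That of rps16 was lost in 9 of 12 such fits (up to 0.147) and kept without ABA array 2, DFPM array 1 or ABA+DFPM array 3. Without control array 2 or DFPM array 3, 0 plastid genes were called for DFPM, and without ABA+DFPM array 3 there were 9. With ABA+DFPM the rpl22 call was lost without control array 2 or 3 or ABA+DFPM array 1 (up to 0.0616), the rps19 call without ABA+DFPM array 2 (0.0524), and the rps16 call was kept throughout. On arrays 1 and 2 alone rps16 and rps19 were called with ABA+DFPM and rpl22 was not. With DFPM rps16 was called on those arrays, and rpl22 and rps19 were not.

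The pair rpl33 and rps18, neighbours in 1 transcription unit, had, with rps16, the largest falls of the 68 genes in ABA+DFPM seedlings. For rpl33 the levels were 10.47, 10.55 and 9.10 with ABA+DFPM, 11.42, 11.13 and 9.42 with DFPM and 11.25, 11.22 and 11.05 with ABA, against 11.90, 12.06 and 11.69 in control, and for rps18 they were 9.46, 9.70 and 8.42 with ABA+DFPM, 10.19, 10.00 and 8.54 with DFPM and 10.29, 10.14 and 10.34 with ABA, against 11.04, 10.38 and 11.04 in control. In both genes the arrays numbered 3 of the ABA+DFPM and DFPM groups were more than 1 log2 unit below their fellows. With ABA+DFPM rpl33 fell by 1.84 (SE 0.51, adjusted p = 0.0143) and rps18 fell by 1.63 (SE 0.45, adjusted p = 0.014), and neither call was lost on leaving out any 1 array. With DFPM alone the changes were -1.23 ± 0.51 (adjusted p = 0.109) and -1.25 ± 0.45 (adjusted p = 0.0703). With the block those adjusted p-values were 0.0184 and 0.0302, and with numbers 1 and 2 averaged neither gene was called for DFPM. For rpl33 the DFPM minus control difference was -0.48, -0.93 and -2.27 in numbers 1, 2 and 3, and for rps18 it was -0.85, -0.38 and -2.50.

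One ribosomal gene went the other way. The small-subunit gene rps14 lies downstream of psaA and psaB and had log2 levels of 6.04, 6.51 and 5.40 with ABA+DFPM, 3.81, 4.03 and 3.94 with DFPM and 4.11, 5.38 and 3.78 with ABA, against 3.47, 4.37 and 3.51 in control. All 3 ABA+DFPM arrays lay above every other array, the highest of which was ABA array 2. It rose against control by 2.20 ± 0.43 (adjusted p = 0.00247), against DFPM by 2.06 ± 0.43 (adjusted p = 0.0128) and against ABA by 1.56 ± 0.43 (adjusted p = 0.0411). Against control the call was kept in all 12 fits that left out 1 array, with adjusted p from 0.000965 to 0.0113. Against DFPM it was lost without ABA+DFPM array 1 or 2 (adjusted p up to 0.0567). Against ABA it was lost without control array 1, ABA array 1 or 3, DFPM array 1 or 2, or ABA+DFPM array 1 or 2 (up to 0.134). Of its 9 values outside ABA+DFPM, only 4 reached log2 4, near the lower end of the scale, so no fold is given. The interaction, which subtracts the ABA change seen without DFPM from the one seen with it, was 1.42 ± 0.61 with an adjusted p of 0.718, or 0.119 with the block.

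The highest mean level of the ribosomal class belonged to rps4, for another small-subunit protein, at 12.30, 12.66 and 11.72 with ABA+DFPM, 12.30, 12.93 and 11.81 with DFPM and 11.93, 12.61 and 12.37 with ABA, against 12.64, 13.10 and 12.86 in control. Its ABA arrays lay wholly below control, with -0.56 ± 0.33 (adjusted p = 0.236), and its ABA+DFPM and DFPM arrays overlapped control, with -0.52 ± 0.33 for DFPM (adjusted p = 0.276). The other genes of the large rpl23 operon, rps3, rpl16, rpl14 and rpl36, had DFPM changes of -0.77 to -0.59, and 0 of the 4 passed the test without the block.

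**Figure D3:**
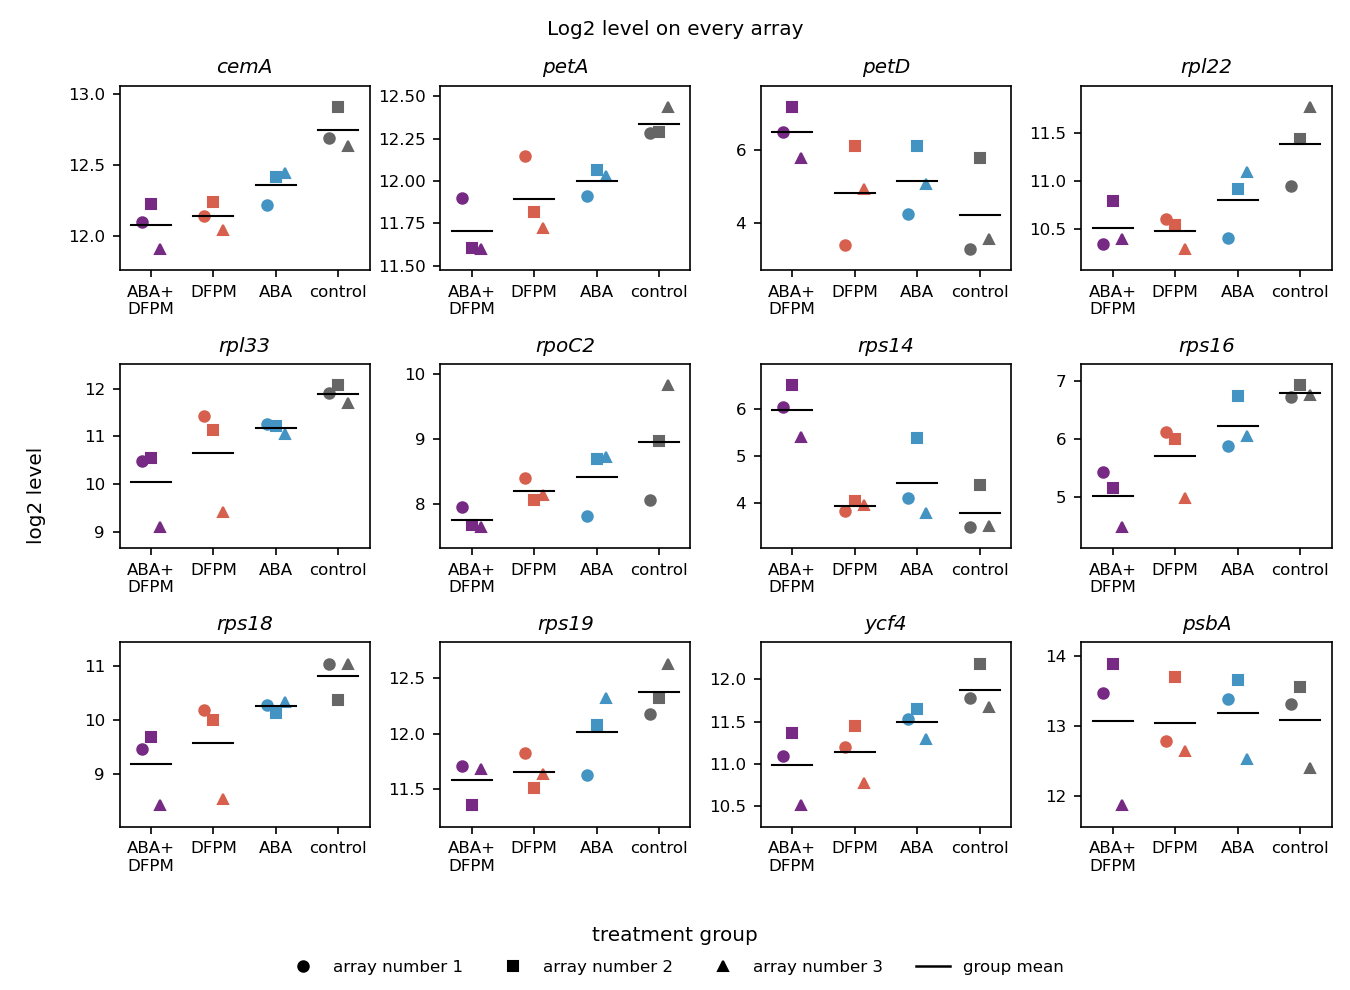
Log2 level on every array for the 11 plastid genes called in any comparison by the fit without a block, and for psbA, which was added after its values were seen. Points are arrays by number, lines are group means, and each panel has its own log2 axis. The control mean is highest in 9 panels, while petD and rps14 are highest with ABA+DFPM, and the psbA groups overlap.

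The 4 rpo genes encode the core of the plastid-encoded RNA polymerase, with rpoA for the alpha subunit and rpoB, rpoC1 and rpoC2 for the beta subunits. All 4 lay below control with DFPM, with changes of -0.86 to -0.53, and with ABA+DFPM, with changes of -1.20 to -0.64, and 1 of them passed the test. The rpoC2 levels were 7.95, 7.68 and 7.65 with ABA+DFPM, 8.40, 8.07 and 8.15 with DFPM and 7.82, 8.69 and 8.73 with ABA, against 8.07, 8.97 and 9.83 in control. It fell with ABA+DFPM, with a change of -1.20 (SE 0.40, adjusted p = 0.0317), where the ABA+DFPM arrays lay below all 3 control arrays. That call was lost without control array 2 or 3 or any 1 ABA+DFPM array, with adjusted p up to 0.0948, and was not made on arrays 1 and 2 alone. The rpoB levels were 4.53, 4.50 and 4.08 with ABA+DFPM, 4.08, 4.88 and 4.16 with DFPM and 4.06, 5.46 and 4.06 with ABA, against 4.70, 5.84 and 4.86 in control, low on every array. For rpoC1 the levels were 9.68, 9.45 and 8.17 with ABA+DFPM, 9.59, 9.94 and 8.21 with DFPM and 9.83, 10.37 and 9.10 with ABA, against 10.16, 10.49 and 9.69 in control, and the arrays numbered 3 were the lowest in every group. With the block rpoB, rpoC1 and rpoA passed the test for DFPM (adjusted p = 0.0319, 0.0136 and 0.0299) and all 4 for ABA+DFPM. For DFPM 0 of the 4 passed with numbers 1 and 2 averaged, and for ABA+DFPM rpoB, rpoC1 and rpoC2 did. Of all probe sets, 26.5% were called lower for DFPM with the block and 13.1% with numbers 1 and 2 averaged. For ABA+DFPM those shares were 34.9% and 26.0%. The rpoA levels, 10.61, 10.52 and 12.04 with ABA+DFPM, 10.70, 10.86 and 11.94 with DFPM and 10.61, 11.06 and 12.19 with ABA, against 11.39, 11.39 and 12.31 in control, ran opposite to rpoC1 in that number 3 was the highest in every group.

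The psa genes encode the core of photosystem I and the psb genes that of photosystem II. None of the 20 passed the test in any comparison without the block. With it 5 fell in DFPM seedlings (psbB, psbC, psbD, psbT and psbZ) and 3 in ABA+DFPM seedlings (psbB, psbE and psbT). Of all probe sets, 26.5% and 34.9% were called lower with the block in these comparisons, so both counts of the 20 lay under those shares. Only psbT was still called for DFPM with numbers 1 and 2 averaged, and 0 for ABA+DFPM. Levels of psbT, a small photosystem II subunit, were 10.55, 10.38 and 8.49 with ABA+DFPM, 9.98, 10.02 and 7.73 with DFPM and 10.51, 11.17 and 9.36 with ABA, against 10.87, 10.89 and 9.86 in control. The change was -1.30 ± 0.76 with DFPM (adjusted p = 0.234, or 0.00515 with the block), and the difference from control was -0.89, -0.87 and -2.13 in numbers 1, 2 and 3. Its cotranscribed neighbour psbB, for the CP47 antenna protein, had a change of -1.24 ± 0.69 (adjusted p = 0.215, or 0.0134 with the block).

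Levels of the other named photosystem genes overlapped between groups or differed by little. The photosystem I reaction centre gene psaB had 14.19, 14.08 and 13.72 with ABA+DFPM, 13.93, 14.18 and 13.83 with DFPM and 13.86, 14.11 and 14.11 with ABA, against 14.04, 14.23 and 14.10 in control, and its groups overlapped. The photosystem II subunit gene psbM had 14.04, 13.85 and 13.69 with ABA+DFPM, 13.82, 13.96 and 13.60 with DFPM and 13.81, 13.78 and 13.69 with ABA, against 13.93, 13.45 and 13.69 in control, with 0.11 ± 0.18 for DFPM against control, the most positive of the class. The photosystem II subunit gene psbI had 11.67, 11.48 and 10.93 with ABA+DFPM, 11.50, 11.57 and 11.15 with DFPM and 11.66, 12.13 and 11.19 with ABA, against 11.89, 11.88 and 11.10 in control. For psaI, a small photosystem I subunit, levels were 11.62, 12.00 and 11.22 with ABA+DFPM, 11.34, 11.82 and 11.28 with DFPM and 11.12, 11.74 and 11.29 with ABA, against 11.48, 11.98 and 11.66 in control, and the ABA change of -0.32 ± 0.26 was the most negative of the class. The iron-sulphur subunit gene psaC had 10.22, 10.84 and 8.82 with ABA+DFPM, 9.35, 10.68 and 8.78 with DFPM and 10.24, 10.25 and 9.24 with ABA, against 10.16, 10.41 and 8.82 in control, where array 3 was the lowest of each group. Of the best known plastid genes, psbA, for the D1 protein of photosystem II, had changes of -0.04 ± 0.55 with DFPM, 0.10 ± 0.55 with ABA and -0.01 ± 0.55 with ABA+DFPM. These 3 changes were smaller than their standard errors. The psbA values were looked at after the rule for named genes was applied.

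Of the 6 pet genes, which encode the cytochrome b6f complex between the photosystems, petA fell and petD rose in ABA+DFPM seedlings. Of all probe sets, 25.4% were called lower and 22.0% higher in that comparison. Cytochrome f, the product of petA, had transcript levels of 11.90, 11.61 and 11.60 with ABA+DFPM, 12.15, 11.82 and 11.72 with DFPM and 11.91, 12.06 and 12.03 with ABA, against 12.28, 12.29 and 12.43 in control. ABA+DFPM lay wholly below control, with a change of -0.63 ± 0.17 (adjusted p = 0.0114), and the call was kept without any 1 array. With DFPM alone the change was -0.44 ± 0.17 (adjusted p = 0.0826, or 0.0453 with the block). Subunit IV is encoded by petD, whose levels were 6.48, 7.17 and 5.78 with ABA+DFPM, 3.39, 6.10 and 4.93 with DFPM and 4.24, 6.10 and 5.06 with ABA, against 3.27, 5.78 and 3.55 in control. It rose by 2.28 ± 0.83 (adjusted p = 0.0442), but the lowest ABA+DFPM array and control array 2 both rounded to 5.78. The call was lost without control array 1 or 3, ABA array 3, DFPM array 3 or ABA+DFPM array 1 or 2, with adjusted p up to 0.144, and no call was made on arrays 1 and 2 alone. With the block the adjusted p was 0.00113 against control, 0.0137 against DFPM and 0.0353 against ABA. Both petA and petD were still called for ABA+DFPM against control with numbers 1 and 2 averaged, and 0 pet genes were called for DFPM or against either agent alone.

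Cytochrome b6 is encoded by petB, just upstream of petD, and its levels were 13.90, 13.84 and 13.59 with ABA+DFPM, 13.86, 13.95 and 13.51 with DFPM and 13.96, 13.87 and 13.61 with ABA, against 13.95, 13.90 and 13.87 in control. The change with ABA+DFPM was -0.13 ± 0.18, within its SE. The small subunit gene petG had 7.92, 8.68 and 6.67 with ABA+DFPM, 7.50, 8.35 and 7.10 with DFPM and 7.83, 8.57 and 6.88 with ABA, against 8.20, 8.88 and 7.34 in control, and petN, for another small subunit, had 7.58, 8.79 and 6.80 with ABA+DFPM, 5.91, 7.88 and 7.02 with DFPM and 6.03, 7.67 and 6.51 with ABA, against 6.12, 7.73 and 6.51 in control. For petN, ABA+DFPM was the highest group within numbers 1 and 2, the change against control was 0.94 ± 0.68 (adjusted p = 0.279), and the block gave an adjusted p of 0.0193, a call that was lost with numbers 1 and 2 averaged.

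ATP synthase makes ATP from the proton gradient across the thylakoid, and 0 of its 6 plastid genes passed the test without the block. The catalytic beta subunit gene atpB had 14.11, 14.33 and 14.01 with ABA+DFPM, 14.55, 14.62 and 14.07 with DFPM and 14.19, 14.37 and 14.31 with ABA, against 14.41, 14.58 and 14.62 in control. Its cotranscribed partner atpE, for the epsilon subunit, had 14.14, 14.26 and 13.79 with ABA+DFPM, 14.48, 14.38 and 14.11 with DFPM and 14.19, 14.38 and 14.02 with ABA, against 14.53, 14.51 and 14.29 in control. With ABA+DFPM their changes were -0.39 ± 0.18 and -0.38 ± 0.19, and atpE passed with the block (adjusted p = 0.0273). The ring subunit gene atpH had 12.67, 12.88 and 12.10 with ABA+DFPM, 12.00, 13.24 and 12.27 with DFPM and 12.33, 12.96 and 12.97 with ABA, against 12.73, 13.19 and 13.35 in control. For atpI, a membrane subunit, levels were 7.07, 7.44 and 7.48 with ABA+DFPM, 6.03, 7.34 and 7.61 with DFPM and 6.83, 7.82 and 8.39 with ABA, against 6.88, 7.90 and 9.10 in control, with -0.97 ± 0.60 for DFPM against control (adjusted p = 0.264, or 0.0248 with the block). The block calls of atpE and atpI were lost with numbers 1 and 2 averaged. With the block, 34.9% of all probe sets were called lower with ABA+DFPM and 26.5% with DFPM. In control seedlings atpI spanned more than 2 log2 units across the 3 arrays.

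The NDH complex carries electrons around photosystem I, and 9 of its plastid genes were measured. None passed without the block. With it 5 fell in DFPM seedlings (ndhA, ndhC, ndhG, ndhH and ndhJ) and 5 in ABA+DFPM seedlings (ndhA, ndhC, ndhH, ndhJ and ndhK). Of all probe sets, 26.5% and 34.9% were called lower with the block. Averaging numbers 1 and 2 left ndhH called for DFPM, and ndhH and ndhJ for ABA+DFPM, against 13.1% and 26.0% of all probe sets called lower. The ndhJ levels were 9.76, 10.35 and 8.39 with ABA+DFPM, 9.54, 10.33 and 8.72 with DFPM and 9.48, 10.46 and 8.94 with ABA, against 10.28, 11.06 and 10.16 in control. Against the control array of the same number ndhJ was lower in all 9 treated arrays, with mean changes of -0.97 ± 0.59 with DFPM and -0.87 ± 0.59 with ABA. Its adjusted p was 0.253 and 0.301, and with the block 0.00814 and 0.0121, and with numbers 1 and 2 averaged neither was called. The adjacent ndhK had 8.56, 9.43 and 6.95 with ABA+DFPM, 7.75, 9.38 and 7.71 with DFPM and 8.22, 9.39 and 7.93 with ABA, against 8.81, 9.70 and 9.34 in control, a change of -1.00 ± 0.67 with DFPM. Subunit I, encoded by ndhI, had 13.84, 13.70 and 13.43 with ABA+DFPM, 13.90, 13.83 and 13.48 with DFPM and 13.77, 13.92 and 13.78 with ABA, against 14.02, 13.88 and 13.80 in control, with no change beyond its SE in any group but ABA+DFPM (-0.24 ± 0.18, adjusted p = 0.274). For ndhE, levels were 9.86, 10.17 and 8.97 with ABA+DFPM, 9.17, 9.96 and 8.81 with DFPM and 9.91, 10.65 and 8.67 with ABA, against 9.73, 10.48 and 8.70 in control, where array 3 was the lowest of each group.

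Among the 8 other genes, cemA had the smallest adjusted p in DFPM seedlings. It encodes an inner envelope membrane protein and lies between ycf4 and petA. Its levels were 12.10, 12.22 and 11.91 with ABA+DFPM, 12.14, 12.23 and 12.04 with DFPM and 12.22, 12.41 and 12.45 with ABA, against 12.69, 12.91 and 12.63 in control. All 9 treated arrays lay below the lowest control array. It fell by 0.61 with DFPM (SE 0.16, adjusted p = 0.0213), to 65.7% of control, and fell by 0.67 with ABA+DFPM (SE 0.16, adjusted p = 0.0067). The DFPM call was lost without control array 2, DFPM array 1 or DFPM array 3 (adjusted p up to 0.0856), and the ABA+DFPM call was kept without any 1 array. With ABA its change was -0.39 ± 0.16 (adjusted p = 0.0961, or 0.0403 with the block).

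The photosystem I assembly gene ycf4 had 11.09, 11.37 and 10.51 with ABA+DFPM, 11.20, 11.45 and 10.78 with DFPM and 11.53, 11.65 and 11.29 with ABA, against 11.78, 12.19 and 11.67 in control. It fell with ABA+DFPM by 0.89 (SE 0.27, adjusted p = 0.0194), with no overlap with control, and the call was lost without control array 2 or ABA+DFPM array 3 (adjusted p up to 0.0765). A second assembly factor for photosystem I, ycf3, had 7.46, 8.33 and 7.77 with ABA+DFPM, 6.29, 8.18 and 8.06 with DFPM and 6.94, 8.06 and 8.70 with ABA, against 7.38, 8.77 and 9.90 in control. Its DFPM change of -1.17 ± 0.71 (adjusted p = 0.251, or 0.0276 with the block) was the most negative of these genes, and its control arrays spanned 2.5 log2 units. The splicing factor gene matK had 11.92, 12.14 and 10.82 with ABA+DFPM, 12.05, 12.18 and 11.19 with DFPM and 12.04, 12.60 and 12.24 with ABA, against 12.39, 12.37 and 12.78 in control, with -0.88 ± 0.37 for ABA+DFPM (adjusted p = 0.0741, or 0.0377 with the block). The protease subunit gene clpP had 12.37, 12.67 and 11.94 with ABA+DFPM, 12.43, 12.78 and 12.02 with DFPM and 12.42, 12.78 and 12.32 with ABA, against 12.70, 12.88 and 12.45 in control. The Rubisco large subunit gene rbcL, also looked at after the rule was applied, had changes of -1.00 ± 0.37 with DFPM (adjusted p = 0.0745, or 0.0467 with the block), -0.44 ± 0.37 with ABA and -0.75 ± 0.37 with ABA+DFPM. Of the 8 genes, ycf4 was the 1 called for DFPM with numbers 1 and 2 averaged, cemA and ycf4 were called for ABA+DFPM, and 0 were called for ABA. In that fit 13.1% of all probe sets were called lower for DFPM and 26.0% for ABA+DFPM.

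Few plastid genes were called between ABA+DFPM and either agent alone. Against ABA alone, ABA+DFPM gave 57 genes below 0 and a median of -0.20, against 56.3% below 0 and a median of -0.09 over all probe sets. The direction was not shared by the numbers: 23, 44 and 61 of 68 genes lay below 0 in numbers 1, 2 and 3, with medians of 0.09, -0.12 and -0.53. The 1 gene called, rps14, rose, where 12.6% of all probe sets were called, 5.96% lower and 6.64% higher. With the block 3 rose (petD, petN and rps14) and 3 fell (rpl33, rps16 and ycf4), against 31.2%, 17.6% lower and 13.6% higher. Only rps14 was called with numbers 1 and 2 averaged, against 9.61%. On arrays 1 and 2 alone rps14 rose and rpl33 and rps16 fell, against 36.6%, 21.5% lower and 15.2% higher. Against DFPM alone, 33 of 68 lay below 0, against 55.7% of all probe sets, and the median was 0.01. The 1 gene called was again rps14, which rose, against 14.2% of all probe sets, 6.19% lower and 8.04% higher. With the block petD also rose, against 35.2%, 19.0% lower and 16.2% higher. Only rps14 was called with numbers 1 and 2 averaged, against 5.65%. On arrays 1 and 2 alone rps14 rose and rpl33 and rps16 fell, against 51.1%, 29.5% lower and 21.6% higher. The ABA+DFPM arrays lay wholly below the ABA arrays for 6 genes (18.8% of all probe sets) and above them for 1 (16.9%), and wholly below the DFPM arrays for 1 gene (17.0%) and above them for 1 (15.6%).

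**Figure D4:**
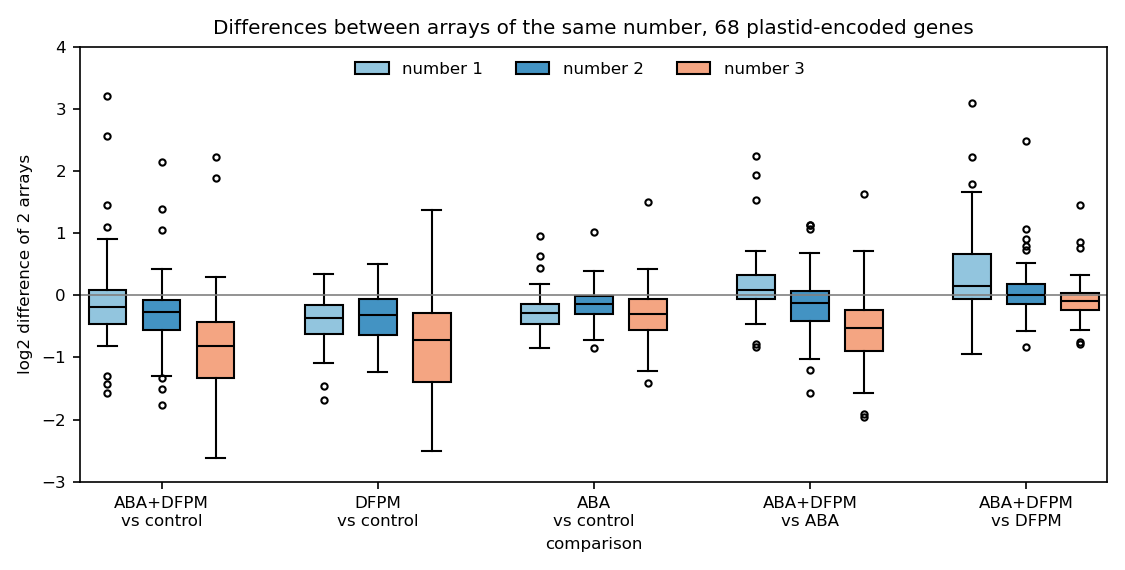
Log2 differences between 2 arrays of the same number for the 68 plastid genes, in 5 comparisons. Boxes span the quartiles with the median as a line, whiskers reach 1.5 box lengths and circles are genes beyond them. The boxes of number 3 lie lowest for DFPM and ABA+DFPM against control, and for ABA+DFPM against ABA the 3 numbers lie on both sides of 0.

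The interaction asks whether the ABA effect differed when DFPM was present. It was called by limma for 0 of 68 plastid genes, against 0.375% of all probe sets (0.222% lower, 0.153% higher), and with the block for 0, against 1.4% (0.889% lower, 0.514% higher). It was called for 0 on arrays 1 and 2 alone, against 8.69% (5.35% lower, 3.34% higher). At an unadjusted p under 0.05 there was 1, rps14, and 2 with the block. The interaction lay above 0 for 60 of 68 genes, with a median of 0.28 against 0.00 over all probe sets, and in all 3 numbers for 34. It lay below 0 for 8 of the 68, against 49.8% of all probe sets. The most positive values by class were 1.13 ± 1.00 for ycf3, 0.84 ± 0.83 for ndhJ, 0.84 ± 0.96 for petN, 0.76 ± 1.07 for psbT, 0.61 ± 0.85 for atpI and 0.60 ± 0.61 for rpoB, besides rps14. The most negative were -0.09 ± 0.44 for psbI and -0.10 ± 0.50 for rps16. Each of these except rps14 was smaller than 2 of its standard errors. The interaction contains the control mean with a positive sign, and the DFPM and ABA changes contain it with a negative sign.

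Genes of 1 operon had similar values in some operons and not in others. The operons were taken from general knowledge of plastid genomes. The genes whose values are given here were checked in RefSeq to lie next to each other or with at most 1 gene between them. The psbD, psbC and psbZ genes had changes of -1.05, -0.97 and -0.98 with DFPM, a range of 0.09. The rpl33 and rps18 pair had a range of 0.02, the 3 rpoB operon genes had changes of -0.86 to -0.75, and the 7 measured genes of the rpl23 operon changes of -0.90 to -0.53. In the psbB operon, by contrast, the values in order were -1.24 for psbB, -1.30 for psbT, -0.32 for psbH, -0.13 for petB and 0.60 for petD, a range of 1.90. In the atpI operon the values ran from -0.97 for atpI through -0.59 for atpH and -0.47 for atpF to -0.30 for atpA, after -0.76 for rps2. For psaA, psaB and rps14 they were -0.68, -0.15 and 0.14, and for ndhC, ndhK and ndhJ -0.44, -1.00 and -0.97. The standard errors, from 0.15 to 0.98, were as large as many of these gaps, and the differences between genes of an operon were not tested.

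**Figure D5:**
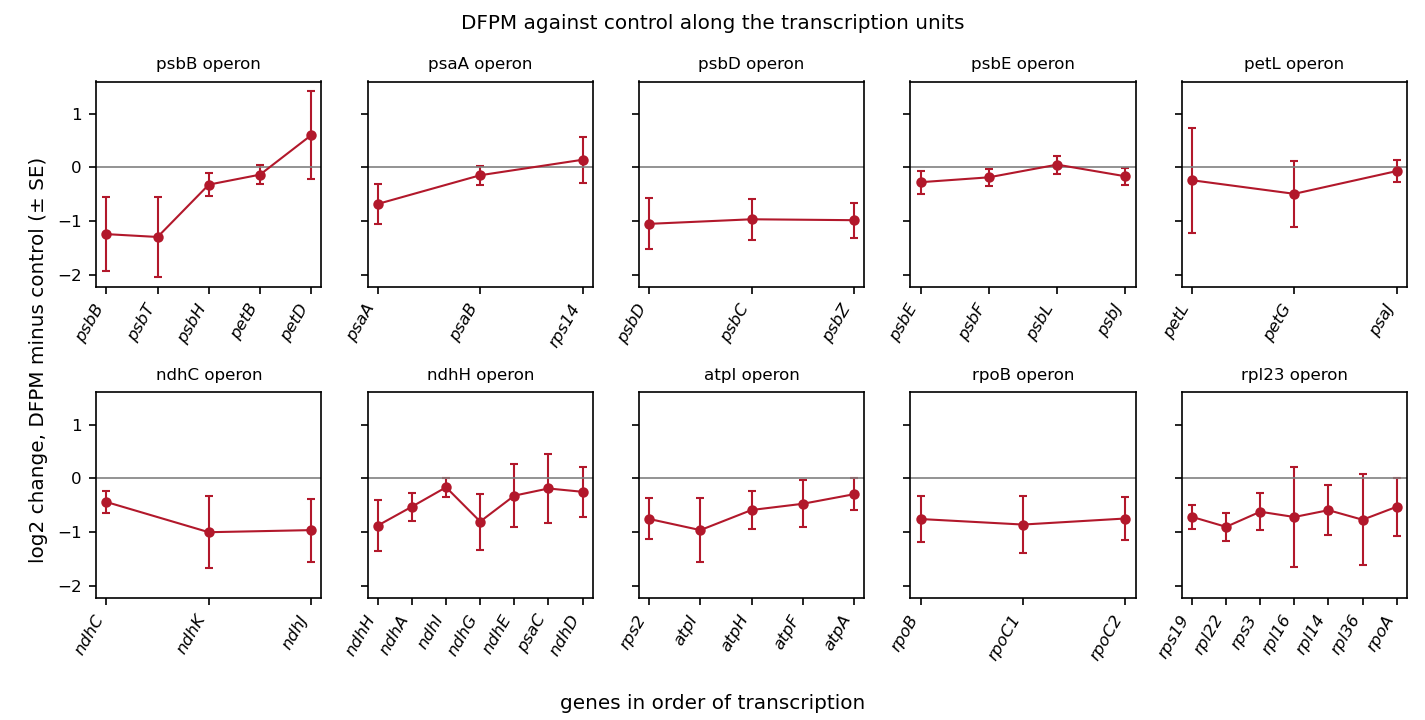
Log2 change with DFPM against control for genes of the 10 operons with at least 3 measured genes, in order of transcription. Points are changes, bars are ± 1 SE (n = 3 arrays per group), and operons are named by a first gene. The psbD, rpoB and rpl23 operons lie evenly below 0, while the psbB operon runs from about -1.3 at psbT to above 0 at petD.

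The changes were smaller for brighter genes. With DFPM the median change was -0.13 for the 10 genes with a mean level of 13 or more, -0.53 for the 34 between 10 and 13, and -0.76 for the 24 under 10. Across the 68 genes, Spearman's rho between the mean level and the size of the change was -0.488, a description of genes that share arrays and operons.

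Measured nuclear genes for chloroplast proteins had larger median changes than the plastid genes, a difference that was not tested. Of 30 listed nucleus-encoded plastid ribosomal proteins 7 were measured, with a median change of -2.27 in DFPM seedlings. Of these, 2 fell, RPL5, which fell by 2.78 (SE 0.72, adjusted p = 0.0198) and RPL34, which fell by 2.52 (SE 0.70, adjusted p = 0.0275), and 7 with the block. In ABA+DFPM seedlings 6 fell. Their largest values were -4.06 for RPL5 and -3.16 for RPL3P. For the 15 plastid-encoded ribosomal genes the DFPM median was -0.72, on the same side of 0. The 3 measured nuclear NDH subunits had changes of -3.65 to -1.21 with DFPM, and NdhN (-3.38, SE 0.62, adjusted p = 0.0043) and NdhL (-3.65, SE 1.00, adjusted p = 0.0253) fell, where the plastid ndh genes had a median of -0.53. For NdhL the lowest ABA+DFPM and DFPM arrays were at 2.14, the lowest value in the files. Of 9 nuclear photosynthesis subunits 0 fell with DFPM, 6 with the block, and the median was -1.45. LHCB4.2, a photosystem II antenna protein, had the smallest adjusted p (-2.09, SE 0.74, adjusted p = 0.0656). Of all probe sets, 11.4% were called lower with DFPM, 26.5% with DFPM and the block, and 25.4% with ABA+DFPM. The fit with numbers 1 and 2 averaged is not given for these nuclear genes, so their block calls lack that comparison.

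Nucleus-encoded factors that process plastid RNA were measured for 4 of 33 listed. The RNA editing factor CRR21 fell by 2.11 (SE 0.65, adjusted p = 0.0404) and the RNA-binding protein CP29B fell by 1.91 (SE 0.59, adjusted p = 0.0412) with DFPM. LPA66 (-0.88, SE 0.43, adjusted p = 0.162) and OTP84 (-0.40, SE 0.39, adjusted p = 0.484) were not called. For CRR21 the lowest DFPM array was at 3.36 and the lowest ABA+DFPM array at 2.29, near the lower end of the scale. The 6 sigma factors and 21 polymerase-associated proteins listed had 0 named probe sets here, and of 3 nucleus-encoded organelle polymerases 0 passed the minimum. They were not analysed here.

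Levels of cell type markers and RNA quality measures by group were as follows. Of 8 leaf mesophyll markers 1 was measured, RCA, the activase of Rubisco. Its level ran from 8.34 to 11.72 with ABA+DFPM, 9.35 to 12.36 with DFPM and 11.99 to 12.71 with ABA, against 13.18 to 13.41 in control. RCA fell with ABA+DFPM (-2.83, adjusted p = 0.0292), and with DFPM its adjusted p was 0.132, or 0.021 with the block. The 2 measured root markers of 9, EXP7 and EXP18, summed to 5.16 to 6.85 with ABA+DFPM, 6.34 to 6.86 with DFPM and 6.97 to 7.55 with ABA, against 7.39 to 7.61 in control, on the log2 scale. EXP18 fell with DFPM (-1.17, adjusted p = 0.0348) and with ABA+DFPM (-1.72, adjusted p = 0.00288). EXP7 was not called with DFPM (-0.74, adjusted p = 0.351) or ABA+DFPM (-1.09, adjusted p = 0.127). With the block both root markers were called lower in both comparisons. Of all probe sets, 11.4% were called lower with DFPM and 25.4% with ABA+DFPM, or 26.5% and 34.9% with the block. The 1 guard cell marker of 7, FAMA, ran from 4.09 to 7.15, 5.18 to 7.09 and 4.47 to 6.71 in those treated groups, against 5.75 to 7.13 in control. The difference between 3' and 5' control probe sets for ubiquitin was 0.73 to 0.97 with ABA+DFPM, 1.04 to 1.25 with DFPM and 0.61 to 0.82 with ABA, against 1.03 to 1.29 in control. The DFPM and control ranges overlapped on this measure, and the ABA+DFPM and ABA ranges lay wholly below control. For actin it was 4.27 to 4.68, 4.86 to 5.05 and 4.56 to 4.63 in those treated groups, against 4.86 to 5.30 in control. Here too the DFPM range overlapped control, and the ABA+DFPM and ABA ranges lay wholly below it. For GAPDH it was 1.05 to 1.27, 0.91 to 1.22 and 1.24 to 1.32, against 1.09 to 1.31 in control, so all 3 treated groups overlapped control. The part of these measures in the plastid values was not tested.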

How the data were processed

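Total RNA from whole seedlings was labelled with biotin and hybridised to 12 ATH1 arrays, 3 per group. The deposited log2 values were made by the authors with GCRMA and affy, per the submitters' processing notes, with versions not given in the sources used here. GCRMA corrects background and normalises across arrays, so levels are comparable between arrays but not between probe sets. Of 22746 probe sets for genes, 14401 had a log2 value of at least 4 on at least 3 arrays and were tested, and 64 control probe sets were left out. Genes were named from the platform annotation, and RefSeq (TAIR10.1) was used for names and gene neighbours.

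A limma model (version 3.58.1, R 4.3.3) with 1 mean per group was fitted to all tested probe sets, and p-values were adjusted over all of them (Benjamini-Hochberg). The fit was tested on simulated data. Tables and plots were made with Python 3.11.15, pandas 2.3.3, numpy 2.4.6 and matplotlib 3.10.9. Arrays of the same number deviated together (r from 0.426 to 0.802 over 18 pairs), so a fit with the number as a block is given beside the other, although the labels leave the meaning of the numbers unstated.

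The genes, classes, operons and lists were chosen with earlier results of these data known. Per-array values were given for 35 genes: in each class the gene with the highest mean level and those with the most positive and most negative DFPM, ABA and interaction values, and every gene called without the block. Of each other list, up to 3 genes with the smallest adjusted p for DFPM or ABA could be named. Alternatives covered the low-value filter, normalisation, variance model, block and arrays left out.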

Additional observations from a re-analysis of the deposited data

How the results depend on the processing

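The number of plastid genes called depended mostly on how the array numbers were handled. With the replicate block the counts were 2 for ABA against control (0 without it), 28 for DFPM against control (4), 32 for ABA+DFPM against control (11), 6 for ABA+DFPM against ABA (1) and 2 for ABA+DFPM against DFPM (1). With only the arrays numbered 1 and 2 they were 3 for ABA, 8 for DFPM, 3 for ABA+DFPM against ABA and 3 for ABA+DFPM against DFPM. With numbers 1 and 2 averaged and the block, 17 were called for ABA+DFPM against control, among them all 11. For DFPM 4 were called, among them 1 of the 4, and for ABA 0. So 24 of the 28 DFPM calls and both ABA calls of the block were lost in this fit, which has fewer values and gives number 3 more weight. Without the low-value filter 1 was called for ABA and 0 for ABA+DFPM against ABA. Leaving out each array in turn gave 0 for ABA, 0 to 9 for DFPM, 0 to 2 for ABA+DFPM against ABA, 0 to 1 for ABA+DFPM against DFPM and 8 to 11 for ABA+DFPM against control. The DFPM count was 0 without control array 2 or DFPM array 3, 1 without control array 3, DFPM array 1 or DFPM array 2, and 9 without ABA+DFPM array 3. The cause of these differences was not tested. The interaction gave 0 in every setting run. Quantile normalisation, median centring, a stricter filter and another variance model kept each of these counts within 1.5 times. For the 35 named genes, 232 of 4194 recomputed values changed sign, and 0 of these were of a called change. Signals near the lower end of the scale limit rps14, petD and rpoB.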

Other observations

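Probe sets that the annotation gave to more than 1 plastid locus, such as those of genes with a copy in each arm of the inverted repeat, were kept apart from the genes above. Of the 6 such probe sets that passed the minimum, ycf1, for a large envelope protein of the import machinery, fell in DFPM seedlings (log2 change -0.76 ± 0.23, SE, limma adjusted p = 0.0393) and in ABA+DFPM seedlings (-0.91 ± 0.23, adjusted p = 0.00939). With ABA its change was -0.61 ± 0.23 (adjusted p = 0.0726, or 0.0262 with the block). The ribosomal genes rpl2, rpl23, rps7 and rps12 were not called without the block in any of these 3 comparisons, and their DFPM changes were -0.23 for rpl2, -0.33 for rpl23, -0.06 for rps7, and 0.00 and -0.10 for the 2 probe sets of rps12.

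The 6 measured mitochondrion-encoded genes, a list made after the annotation was seen, had median log2 changes of 0.57 with ABA+DFPM, 0.36 with DFPM and 0.07 with ABA, all against control, where the plastid medians were -0.45, -0.52 and -0.25. By limma 0 of the 6 were called without the block in any of these comparisons. With it 2 rose with ABA+DFPM and 2 rose with DFPM, where 29.3% and 20.9% of all probe sets were called higher. The fit with numbers 1 and 2 averaged is not given for these genes. The difference between the organelles was not tested.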
